A study of Pyrus calleryana with 9 samples.

Results

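The expression of 4 genes of gibberellin (GA) synthesis was followed through cold stratification of callery pear (Pyrus calleryana) seeds, out of 59552 genes in the table. They are Chr11.g13139, named ent-copalyl diphosphate synthase (CPS), Chr16.g28723, named ent-kaurenoic acid oxidase 1 (KAO1), and Chr1.g56784 and Chr7.g31979, both named gibberellin 20 oxidase 2 (GA20ox). The genes were chosen by name and by their measured expression: the GA20ox pair was taken because it was expressed, and all 4 were proposed with their levels at the 3 stages known. Their own levels and changes are therefore given as a description, without a p-value.

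The seeds were taken from ripe fruit, dried, imbibed in water for 24 h and kept on wet filter paper at 4 °C. Messenger RNA of whole seeds was sequenced at 3 stages: imbibed seeds that had received no cold (0 d) and seeds after 20 d and 50 d of cold, with 3 biological replicates per stage (A, B and C). All groups share the imbibition, and no group was kept for the same time without cold, so days of cold and days after imbibition cannot be told apart. Embryo, storage tissue and seed coat are mixed in each library, and fewer cells of a type cannot be told apart from less RNA per cell.

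Gibberellins are diterpenoid hormones that promote germination, and their synthesis starts in plastids from geranylgeranyl diphosphate. CPS makes the first committed intermediate, which ent-kaurene synthase (KS) turns into ent-kaurene. The cytochrome P450 enzymes ent-kaurene oxidase (KO) and KAO then produce the first gibberellin. In the cytosol GA20ox shortens the carbon skeleton, GA 3-oxidase (GA3ox) yields the bioactive hormone, and GA 2-oxidase (GA2ox) inactivates it. In Arabidopsis seeds, cold during imbibition is known to raise the transcript of a GA3ox gene. The names used here come from the Swissprot match given in the table, and the activity of the pear enzymes was not measured.

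The 9 libraries held between 13893019 and 16228340 counts. Replicates of 1 stage had correlations of log2 CPM (counts scaled to library size) across genes of 0.954 to 0.967 at 0 d and 0.900 to 0.962 at 50 d. The lower values of 50 d were those of replicate C, at 0.900 with A and 0.924 with B, against 0.962 between A and B. At 20 d, replicates A and C had a correlation of 0.976, whereas replicate B stood apart at 0.883 with A and 0.892 with C. Values without 20 d B are therefore given for the 4 genes, for the gene lists and for the named genes whose change from 0 d to 20 d is given as called. Genes for oleosins and legumins, which mark the storage tissue of seeds, were abundant in every library: the 12 genes summed to 14480 to 27309, 13788 to 18540 and 2114 to 5718 FPKM (fragments per kilobase of gene model, scaled to library size) at 0 d, 20 d and 50 d. All 12 had counts. The 21 seed coat genes summed to 164 to 190, 76.4 to 94.3 and 125 to 175 FPKM at 0 d, 20 d and 50 d, and 1 of them had no count. They did not share one course. From 0 d to 50 d the median log2 change was 1.49 for 5 tested anthocyanidin reductases and 0.72 for 3 leucoanthocyanidin reductases. It was -1.68 for 3 tested TRANSPARENT TESTA genes and -1.24 for the 1 tested laccase-15 gene. Both sums moved between stages, and their part in the values below was not tested.

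The 4 genes lay on 4 chromosomes of the wild pear (P. betuleafolia) assembly to which the reads were mapped. The CPS gene Chr11.g13139 spans bases 33118172 to 33123332 of chromosome 11 on the minus strand, with a gene model of 2400 bases. The KAO1 gene Chr16.g28723 spans bases 21398118 to 21402762 of chromosome 16 on the plus strand, with a model of 1512 bases. Of the GA20ox pair, Chr1.g56784 spans bases 15558240 to 15560264 of chromosome 1 (minus strand, model of 1714 bases), and Chr7.g31979 spans bases 24998202 to 24999680 of chromosome 7 (minus strand, model of 1179 bases). No other gene model overlapped any of them, and the nearest models were 2760 to 19363 bases away.

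The means of the 4 genes followed different courses. CPS rose in both intervals and was highest at 50 d. KAO1 had reached its higher level by 20 d. The GA20ox gene Chr1.g56784 had its highest mean at 20 d, and the GA20ox gene Chr7.g31979 was highest before the cold and lowest at 50 d.

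**Figure D1:**
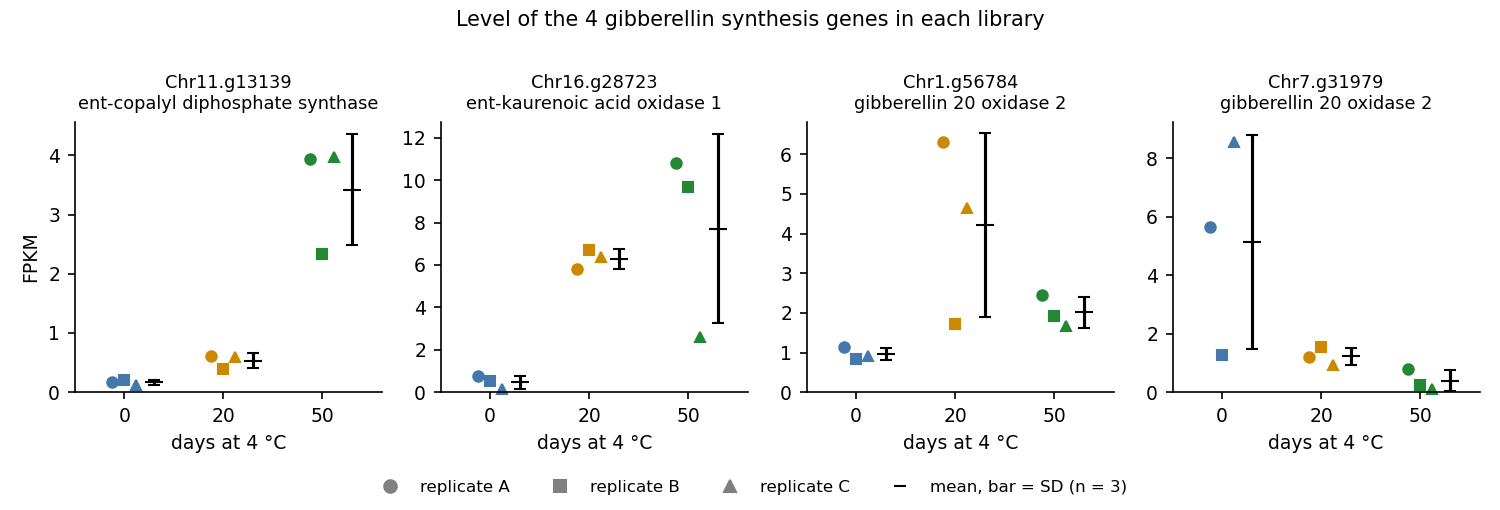
FPKM (vertical axes, linear from 0) of the 4 genes in each library against days at 4 °C, with symbols for replicates A, B and C and a dash with a bar for the mean and SD of 3 libraries (bars stop at 0). CPS is highest at 50 d (2.34 to 3.98 FPKM), KAO1 is at 5.79 to 6.72 FPKM in all 3 libraries of 20 d, Chr1.g56784 has 2 high libraries at 20 d, and Chr7.g31979 has 2 high libraries at 0 d.

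CPS, the enzyme of the first committed step, rose in both intervals and was highest at 50 d. Chr11.g13139 had 5, 8 and 4 counts in replicates A, B and C at 0 d, 23, 13 and 22 at 20 d, and 180, 94 and 136 at 50 d. No library of one stage overlapped a library of another. Its mean was 0.166 ± 0.0427, 0.533 ± 0.124 and 3.42 ± 0.939 FPKM at 0 d, 20 d and 50 d (SD, n = 3 at each stage). On the log2 scale, the edgeR fit gave a change of 1.73 ± 0.48 (SE) from 0 d to 20 d and of 2.65 ± 0.41 from 20 d to 50 d. The whole change from 0 d to 50 d was 4.38 ± 0.46, which is 20.8-fold, and 39.5% of it on the log2 scale had been reached at 20 d. The first interval minus the second was -0.92 ± 0.76. The second interval is longer than the first, and this difference, here and for the other genes, is not scaled per day. The early values rest on few counts: the 95% Poisson interval of the 4 counts in 0 d C runs from 1.09 to 10.2, and intervals of this kind cover counting error only.

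Without 20 d B, the changes of CPS were 1.81 ± 0.53 and 2.51 ± 0.45. Its mean FPKM was above that of 5.74% of all tested genes before the cold, 9.33% after 20 d and 33.6% after 50 d.

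KAO1, which oxidizes ent-kaurenoic acid to the first gibberellin, had most of its rise by 20 d. Chr16.g28723 had 14, 13 and 3 counts at 0 d, 137, 141 and 148 at 20 d, and 311, 246 and 56 at 50 d. Every library of 20 d and 50 d was above every library of 0 d, while 50 d C lay below all libraries of 20 d. Its mean was 0.477 ± 0.307, 6.30 ± 0.472 and 7.71 ± 4.46 FPKM at 0 d, 20 d and 50 d (SD, n = 3 at each stage). The change from 0 d to 20 d was 3.79 ± 0.61 (SE) on the log2 scale, or 13.9-fold, and that from 20 d to 50 d was 0.28 ± 0.53. Of the change from 0 d to 50 d (4.08 ± 0.60), 93.0% on the log2 scale had been reached at 20 d. The first interval minus the second was 3.51 ± 0.97.

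The spread of KAO1 between replicates differed by stage. Its SD of log2 CPM was 0.12 at 20 d and 1.15 at 50 d, where the median SD of tested genes within 0.5 log2 units of its level was 0.41. Without 50 d C, the change from 20 d to 50 d was 0.77 ± 0.45, and without 50 d A it was -0.05 ± 0.60. The direction after 20 d thus depended on which library of 50 d was kept. The library 50 d C, where KAO1 was low, also had the highest oleosin and legumin sum of its stage (5718 FPKM against 2988 in A and 2114 in B), and the part of this in the KAO1 value was not tested. Without 20 d B, the change from 0 d to 20 d was 3.65 ± 0.65.

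Of the GA20ox pair, which acts after KAO, Chr1.g56784 had its highest mean at 20 d. It had 24, 23 and 21 counts at 0 d, 169, 41 and 122 at 20 d, and 80, 55 and 41 at 50 d. The 3 libraries of 0 d lay below all others. At 20 d, replicates A and C were above every library of 50 d, but replicate B, the library that stood apart, was within the range of 50 d. Its mean was 0.957 ± 0.158, 4.22 ± 2.32 and 2.02 ± 0.397 FPKM at 0 d, 20 d and 50 d (SD, n = 3 at each stage). The change was 2.22 ± 0.48 (SE) on the log2 scale from 0 d to 20 d, -1.08 ± 0.46 from 20 d to 50 d and 1.14 ± 0.48 over both. The first interval minus the second was 3.30 ± 0.80.

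Without 20 d B, the changes of Chr1.g56784 were 2.50 ± 0.42 and -1.41 ± 0.40, and the first minus the second was 3.90 ± 0.73. Without 20 d A, the first minus the second was 2.51 ± 0.93. This difference thus varied in size with the library kept, and its sign did not in any of the 9 fits with 1 library left out. It is also large for a rise before 20 d without a later fall, so it does not measure a maximum at 20 d. The change from 20 d to 50 d ranged from -1.41 to -0.68 in these fits and was called in 0 of 17 alternative fits.

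The second GA20ox gene, Chr7.g31979, was lower at each later stage. It had 82, 24 and 137 counts at 0 d, 22, 25 and 17 at 20 d, and 18, 5 and 2 at 50 d. In CPM, 0 d B fell within the range of 20 d (1.15 to 1.89), so these stages overlapped, and all 3 libraries of 50 d were below all of 20 d. Its mean was 5.15 ± 3.66, 1.22 ± 0.296 and 0.392 ± 0.362 FPKM at 0 d, 20 d and 50 d (SD, n = 3 at each stage). The change was -1.98 ± 0.70 (SE) on the log2 scale from 0 d to 20 d, -1.59 ± 0.78 from 20 d to 50 d and -3.57 ± 0.75 over both, which is 11.9-fold lower at 50 d than at 0 d. The first interval minus the second was -0.39 ± 1.27.

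The replicates of Chr7.g31979 at 0 d were far apart. Its SD of log2 CPM there was 1.37, above that of 99.4% of the 3381 genes at a similar level, and the highest library was 6.57 times the lowest in CPM. The low library 0 d B also had the lowest oleosin and legumin sum of its stage (14480 FPKM against 24235 in A and 27309 in C), and the part of this was not tested. Without 0 d B, the change from 0 d to 20 d was -2.43 ± 0.64, and without 0 d C it was -1.51 ± 0.79. Without 20 d B, the changes were -2.26 ± 0.76 from 0 d to 20 d and -1.34 ± 0.83 from 20 d to 50 d. The 50 d values rest on 2 to 18 counts: without 50 d A, the change from 20 d to 50 d was -2.67 ± 0.90 and the first interval minus the second turned to 0.70 ± 1.27.

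**Figure D2:**
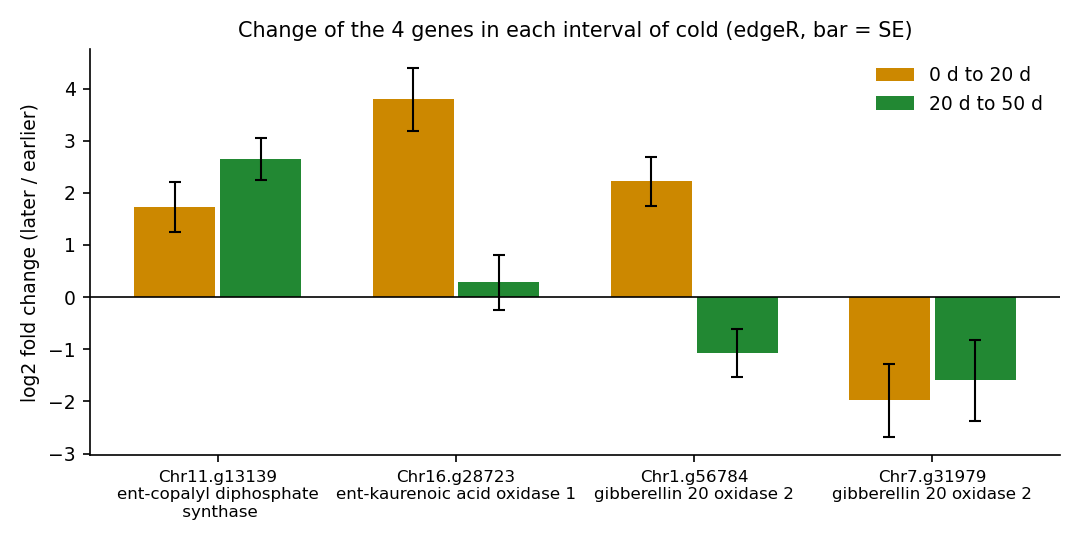
Log2 fold change (later stage over earlier, vertical axis) of the 4 genes from 0 d to 20 d and from 20 d to 50 d, with bars for the SE of the edgeR fit on 9 libraries. CPS has 2 positive steps (1.73 and 2.65), KAO1 1 large positive step (3.79) and then 0.28, Chr1.g56784 a positive and a negative step (2.22 and -1.08), and Chr7.g31979 2 negative steps (-1.98 and -1.59).

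A gene was called changed when edgeR gave an adjusted p of at most 0.01, the absolute log2 fold change was at least 1, and the mean reached 1 FPKM in at least 1 of the stages compared. From 0 d to 20 d, 2 of the 4 genes met this rule as higher (KAO1 and Chr1.g56784) and none as lower, where 12.4% of the 28339 tested genes met it, 7.88% as higher and 4.52% as lower. From 20 d to 50 d, only CPS met it, as higher, where 1.66% of all tested genes did, 1.40% as higher and 0.254% as lower. From 0 d to 50 d, CPS and KAO1 met it as higher and Chr7.g31979 as lower, where 26.6% of all tested genes did, 15.6% as higher and 11% as lower. Since the genes were picked for these changes, nothing is read from their counts. Libraries of the stages compared did not overlap in CPM for 3 of the 4 genes from 0 d to 20 d, 2 from 20 d to 50 d and 4 from 0 d to 50 d, where 42.1%, 25.8% and 55.6% of all tested genes did not overlap.

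Some of these calls depended on single libraries. CPS from 20 d to 50 d met the rule in 9 of 17 alternative fits and missed it when any 1 of 0 d A, 20 d A, 20 d C, 50 d A, 50 d B or 50 d C was left out, with changes of 2.52 to 2.85. KAO1 from 0 d to 20 d met it in 15 of 17, and missed it without 0 d B (3.92) or 0 d C (3.26). Chr1.g56784 met it in 8 of 17, and missed it without any 1 library of 0 d, 20 d A, 20 d C or 50 d B, with changes of 1.83 to 2.24. Chr7.g31979 from 0 d to 50 d met it in 13 of 17, and missed it without 0 d A (-3.55), 0 d C (-3.05) or 50 d B (-3.32). CPS and KAO1 from 0 d to 50 d met it in all 17.

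**Figure D3:**
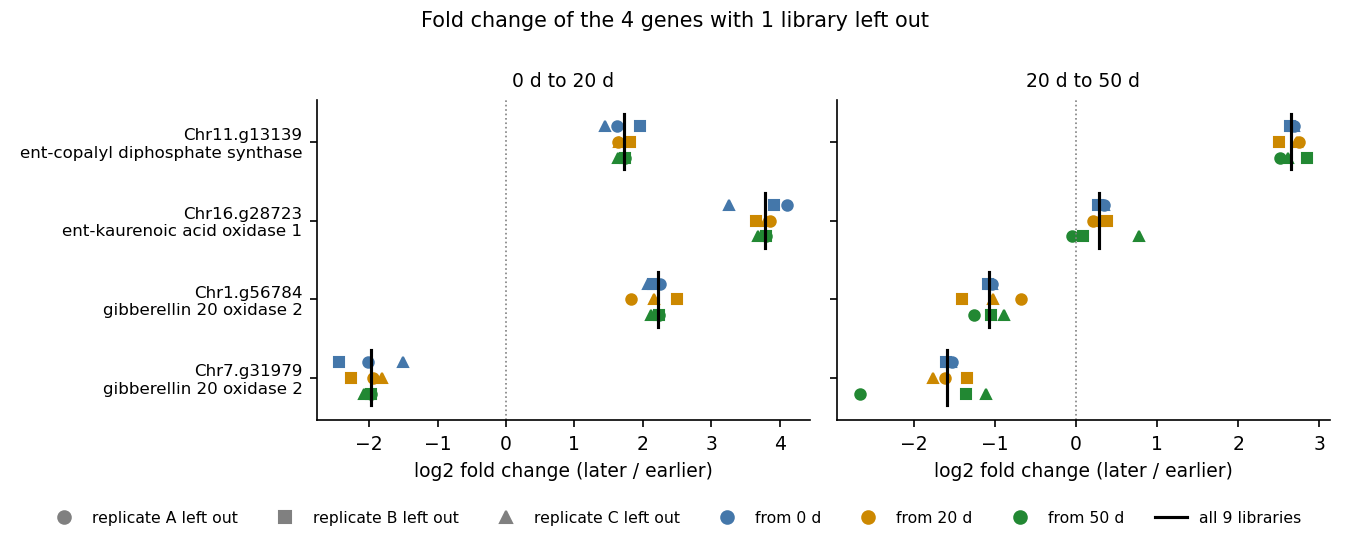
Log2 fold change (horizontal axes) of the 4 genes from 0 d to 20 d and from 20 d to 50 d with all 9 libraries (black line) and with 1 library left out (colour for its stage, symbol for its replicate). From 0 d to 20 d every point keeps its side of 0; from 20 d to 50 d KAO1 runs from -0.05 to 0.77 and Chr7.g31979 from -2.67 to -1.11.

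The same enzyme names were carried by other genes, and the share of each gene in the summed FPKM of its enzyme shows which transcript prevailed. Among the 5 GA20ox genes the prevailing one differed between stages. At 0 d, Chr7.g31979 made up 58.7% to 90.5% of the GA20ox sum and Chr1.g56784 9.54% to 38.7%. At 20 d, Chr1.g56784 made up 53.0% to 83.5%, and at 50 d 75.4% to 93.4%. The FPKM ratio of Chr1.g56784 to Chr7.g31979 was 0.105 to 0.659 in the libraries of 0 d, 1.13 to 5.28 at 20 d, where B was lowest, and 3.06 to 14.1 at 50 d. It was below 1 in the 3 libraries of 0 d and above 1 in the other 6. The remaining 3 GA20ox genes had at most 3 counts in any library, and 1 of them, Chr2.g42937, had none.

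The CPS name was carried by 3 genes. The short model Chr11.g12249 (504 bases) made up at least 85.3% of the CPS sum in each library of 0 d, and Chr11.g13139 4.32% to 7.16%. At 50 d, Chr11.g13139 made up 46.7% to 72.0%. Chr11.g12249 itself had 10 to 35 counts in each library and did not pass the test in any comparison (2.95 ± 1.44 FPKM at 0 d, 2.02 ± 0.564 at 50 d, SD, n = 3). Whether this short model is a whole gene is not known from the table, and near-identical copies may share reads.

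For KAO, 7 genes carried the name, and a second gene named ent-kaurenoic acid oxidase 1, Chr7.g34096, had the higher FPKM in every library of 0 d and 20 d. Chr7.g34096 made up 72.9% to 94.4% of the KAO sum at 0 d and 44.6% to 57.0% at 50 d, against 2.34% to 27.1% and 33.0% to 52.5% for Chr16.g28723. Its level was 3.57 ± 2.04, 10.7 ± 3.48 and 7.65 ± 2.73 FPKM at 0 d, 20 d and 50 d (SD, n = 3). Its log2 change from 0 d to 20 d was 1.66 ± 0.45 (SE; adjusted p = 0.0199 with edgeR), which did not pass the limit of 0.01. Like Chr16.g28723, it was lowest among the 50 d libraries in C, with 108 counts against 295 in A and 262 in B.

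**Figure D4:**
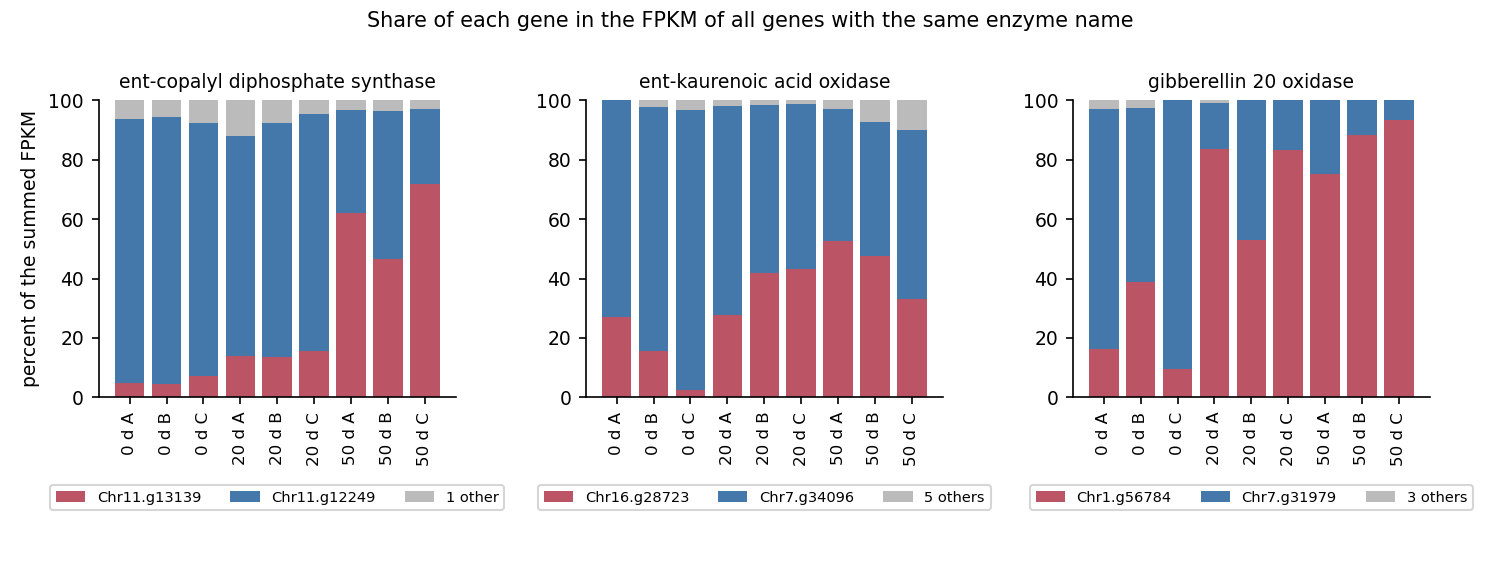
Percent of the summed FPKM (vertical axes, 0 to 100) that each gene takes among all genes with the same enzyme name, as stacked bars for the 9 libraries in order of stage. Chr11.g13139 takes 46.7% to 72.0% of the CPS sum at 50 d, Chr16.g28723 33.0% to 52.5% of the KAO sum at 50 d, and in GA20ox the larger share passes from Chr7.g31979 at 0 d to Chr1.g56784 at 20 d and 50 d.

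Between CPS and KAO, the genes of the middle steps showed no change that passed the test with edgeR. The single KS gene, Chr10.g14863, which makes ent-kaurene, was at 3.77 ± 0.401 FPKM in imbibed seeds, 4.48 ± 0.533 at 20 d and 2.04 ± 0.0122 at 50 d (SD, n = 3). Its log2 change from 20 d to 50 d was -1.15 ± 0.29 (SE, adjusted p = 0.0436 with edgeR), which missed the limit. DESeq2 called KS lower in this interval. The KS mean was lowest at 50 d, the stage at which CPS was highest. None of the 5 tested KO genes was called in any comparison with edgeR, DESeq2 or limma on log2(FPKM + 1). Of all tested genes, edgeR called 12.4% from 0 d to 20 d, 1.66% from 20 d to 50 d and 26.6% from 0 d to 50 d. With so few KO genes, nothing is read from the absence of calls. With edgeR, 2 KO genes had an unadjusted p below 0.05 from 0 d to 20 d, 2 from 20 d to 50 d and 0 from 0 d to 50 d. The KO gene with the highest mean at 0 d and 50 d, Chr15.g04608, was at 9.07 ± 2.76, 8.19 ± 1.56 and 12.7 ± 0.445 FPKM at the 3 stages. A further 4 KO models, Chr8.g53947 to Chr8.g53950, are numbered in a row on chromosome 8, had their highest means at 20 d (2.41 to 11.7 FPKM), and may share reads.

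GA3ox, the last step to the bioactive hormone, held the edgeR calls among the synthesis genes beside the 4. Chr17.g26837 had no count at 0 d, 17, 4 and 25 counts at 20 d, and 18, 34 and 17 at 50 d. It rose from 0 d to 20 d (adjusted p = 0.00494 with edgeR) and was at least 14.4-fold higher at 20 d and at least 19.3-fold higher at 50 d, against a floor of 3 counts over the stage. Its adjusted p from 0 d to 20 d was 0.000960 without 20 d B. Chr17.g26834, near it in the numbering, had no count at 0 d, 19, 6 and 24 at 20 d and 19, 23 and 15 at 50 d, and rose from 0 d to 50 d (adjusted p = 0.00109 with edgeR; at least 15.95-fold). Its mean at 20 d, 0.959 FPKM, was just under the limit of 1 FPKM, so it was not called at 20 d, but it was called without 20 d B (adjusted p = 0.000739 with edgeR). The counts of Chr17.g26837 and Chr17.g26834 ranked the libraries alike at 20 d and at 50 d, and these genes may share reads.

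Chr9.g45229 was a later GA3ox gene. It had no count at 0 d, 2, 1 and 2 at 20 d and 29, 52 and 18 at 50 d, and rose from 0 d to 50 d (adjusted p = 0.000448 with edgeR; at least 27.7-fold). From 20 d to 50 d its adjusted p was 0.0140. A further GA3ox gene, Chr3.g20321, went the other way, with 26, 28 and 22 counts at 0 d, 3, 14 and 5 at 20 d and 17, 2 and 4 at 50 d. It did not pass the test with edgeR (adjusted p = 0.0569 from 0 d to 50 d). Limma on log2(FPKM + 1) called 1 GA3ox gene lower in this comparison, and Chr3.g20321 was the only 1 of the 5 tested that fell.

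Of the 28 synthesis genes beside the 4, 13 could be tested and 4 had no count in any library. With edgeR, 1 was called higher and none lower from 0 d to 20 d, none from 20 d to 50 d (4 had an unadjusted p below 0.05), and 3 higher and none lower from 0 d to 50 d. Of all tested genes, 7.88% and 4.52%, 1.40% and 0.254%, and 15.6% and 11% were called higher and lower in these intervals. DESeq2 called 2 higher from 0 d to 20 d, among them a KAO gene, 1 higher and 1 lower (KS) from 20 d to 50 d, and 3 higher from 0 d to 50 d. With limma on log2(FPKM + 1) the calls were none, 1 higher, and 3 higher and 1 lower. With 20 d B left out, edgeR called 2, 0 and 3 higher and none lower. The 3 GA3ox genes with no count at 0 d passed the low-count filter through later stages, so from 0 d they could only rise. They held every edgeR call of this list with all libraries, and they enter the median. The median log2 change of the 13 genes from 0 d to 20 d was 1.37, or 0.64 with the genes at 0 set to their bound, beside 0.15 for all tested genes. It was -0.33 beside -0.06 from 20 d to 50 d, and 0.55 beside 0.16 from 0 d to 50 d.

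**Figure D5:**
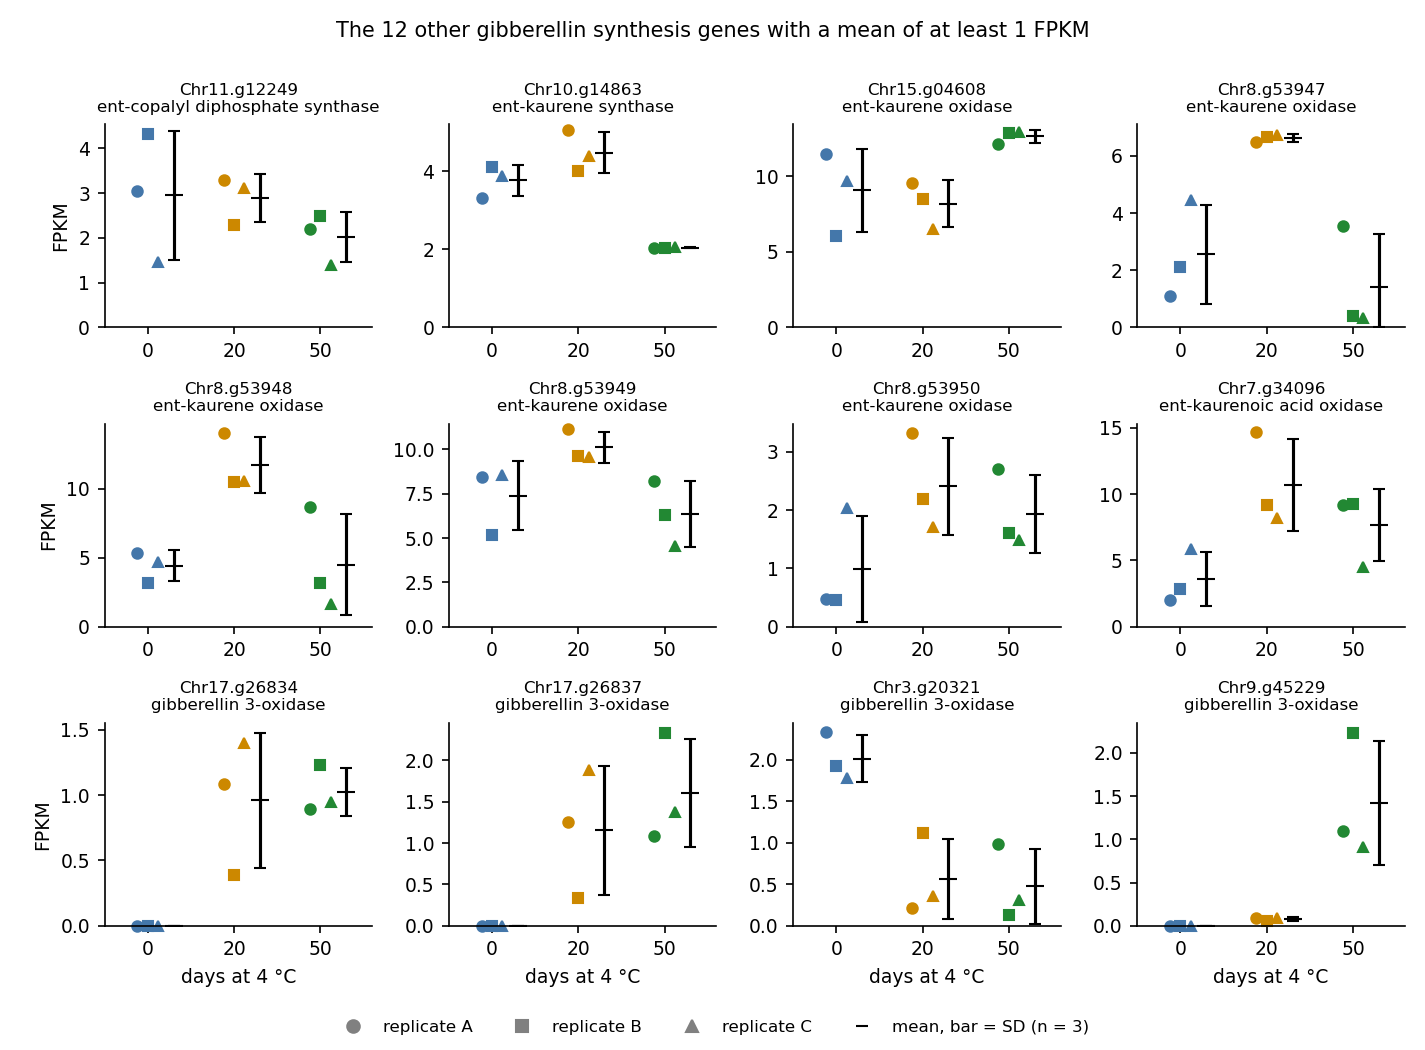
FPKM (vertical axes, linear from 0) of the 12 other gibberellin synthesis genes with a mean of at least 1 FPKM at a stage, by library against days at 4 °C, with symbols for replicates A, B and C and a dash with a bar for the mean and SD of 3 libraries (bars stop at 0). The GA3ox genes Chr17.g26834, Chr17.g26837 and Chr9.g45229 are at 0 in all libraries of 0 d, and KS is at 2.04 FPKM at 50 d against 4.48 at 20 d.

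Upstream of CPS, the plastid genes that supply geranylgeranyl diphosphate were higher at the later stages where they passed the test. Of 22 tested genes, edgeR called 4 higher from 0 d to 20 d, where 7.88% of all tested genes were called higher, none from 20 d to 50 d (1.40% of all) and 8 from 0 d to 50 d (15.6% of all). It called none lower, where 4.52%, 0.254% and 11% of all tested genes were called lower in these intervals. For 20 d to 50 d, 5 had an unadjusted p below 0.05 with edgeR, DESeq2 called 1 higher and limma none. The counts called higher were 5, 0 and 9 without 20 d B. Chr16.g29805, a probable 1-deoxy-D-xylulose-5-phosphate synthase, the entry enzyme of the plastid isoprenoid route, rose from 1.81 ± 0.331 FPKM at 0 d to 14.6 ± 4.87 at 20 d (SD, n = 3; log2 change 3.09 ± 0.46 SE, 3.25 ± 0.46 without 20 d B; adjusted p = 0.00149 with edgeR). The median of the list was 0.59 from 0 d to 20 d and 0.58 from 20 d to 50 d, beside 0.15 and -0.06 for all tested genes.

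Enzymes that use the same precursor for other products were likewise higher where they passed the test. Of 6 tested, edgeR called 2 higher from 0 d to 20 d, where 7.88% of all tested genes were called higher, and 4 from 0 d to 50 d (15.6% of all). From 20 d to 50 d edgeR called none (1.40% of all), 3 had an unadjusted p below 0.05, DESeq2 called 2 higher and limma 1. With 20 d B left out, these counts were 2 from 0 d to 20 d, 0 from 20 d to 50 d and 4 from 0 d to 50 d, of 8 tested. Geranylgeranyl diphosphate reductase, which serves chlorophyll and tocopherol synthesis, rose from 0 d to 50 d in Chr14.g50088 (2.78 ± 1.53 to 43.3 ± 12.1 FPKM) and in Chr6.g51205 (0.332 ± 0.155 to 4.86 ± 0.536 FPKM). Phytoene synthase, the entry to carotenoids, rose over the same time in Chr17.g25993 (1.71 ± 1.13 to 8.88 ± 2.50 FPKM) and Chr9.g44398 (1.64 ± 1.18 to 6.34 ± 0.784 FPKM). Their adjusted p values with edgeR were between 0.000139 and 0.00989. Per length, the CPS gene was at 3.42 FPKM at 50 d, below the means of all 4 of these.

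On the side of inactivation, 13 of 43 genes could be tested. They were 8 of 20 GA2ox genes and 5 of 23 genes of the cytochrome P450 class CYP714. Of the 13, edgeR called 1 higher and 2 lower from 0 d to 20 d, where 7.88% of all tested genes were called higher and 4.52% lower. It called none higher and 3 lower from 20 d to 50 d (1.40% and 0.254% of all), and 2 higher and 4 lower from 0 d to 50 d (15.6% and 11% of all). The gene called higher from 0 d to 20 d was a CYP714 gene. From 0 d to 50 d, 1 GA2ox and 1 CYP714 gene were called higher. All genes called lower were GA2ox genes. The counts in these intervals were 1 higher and 2 lower, 2 lower, and 3 higher and 4 lower when 20 d B was left out. The called gene with the highest mean, Chr10.g15067, a gibberellin 2-beta-dioxygenase 1, fell from 493 ± 164 FPKM at 0 d to 94.8 ± 24.9 at 20 d (adjusted p = 0.00209 with edgeR) and 20.9 ± 8.51 at 50 d (adjusted p = 0.00822 from 20 d). Its log2 change from 0 d to 20 d was -2.29 ± 0.38 (SE) and, without 20 d B, -2.58 ± 0.38. Per length, the GA2ox transcript at 0 d was thus far above the 5.15 FPKM of Chr7.g31979, the highest of the 4 genes at that stage.

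Of the genes of perception and signaling, 21 of 43 could be tested, and edgeR called 2 higher from 0 d to 20 d, beside 7.88% of all tested genes, and 4 higher from 0 d to 50 d, beside 15.6%. None was called lower in these comparisons, beside 4.52% and 11% of all tested genes. None was called from 20 d to 50 d (1.40% and 0.254% of all called higher and lower), where 2 had an unadjusted p below 0.05 with edgeR, and DESeq2 and limma called none. In the fit that left out 20 d B, 4, 0 and 6 were called higher. A pair of DELLA genes, repressors of the GA response, rose from 0 d to 20 d: Chr17.g27556 (GAI) from 10.7 ± 0.794 FPKM at 0 d to 51.5 ± 17.5 at 20 d (adjusted p = 0.00171 with edgeR) and Chr2.g41461 (GAI1) from 1.73 ± 0.553 to 13.1 ± 5.85 (adjusted p = 0.00110). Their log2 changes in this interval were 2.35 ± 0.37 and 3.00 ± 0.43 (SE), and without 20 d B 2.51 ± 0.35 and 3.24 ± 0.38. The F-box gene Chr17.g25753 (SNE) rose from 0.156 ± 0.270 FPKM at 0 d to 2.36 ± 1.24 at 50 d (adjusted p = 0.00827 with edgeR). The GA receptor gene Chr12.g35281 (GID1C) had no count at 0 d and 10 to 30 counts at 50 d (adjusted p = 0.00267 with edgeR, at least 15.4-fold higher). It passed the low-count filter through 50 d, so from 0 d it could only rise.

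Gibberellin-regulated peptides, a family named for its response to GA, had 12 tested genes. With edgeR, 5 were called higher and 1 lower from 0 d to 20 d, where 7.88% and 4.52% of all tested genes were. In the same order the counts were 2 and 0 from 20 d to 50 d (1.40% and 0.254% of all), and 6 and 1 from 0 d to 50 d (15.6% and 11% of all). With 20 d B left out, they were 5 and 2, 3 and 0, and 7 and 2, of 14 tested. The called gene with the highest mean, Chr17.g24939 (gibberellin-regulated protein 14), rose from 17.8 ± 6.20 FPKM at 0 d to 173 ± 37.6 at 20 d (adjusted p = 0.000395 with edgeR) and was at 378 ± 179 at 50 d. Its log2 change from 0 d to 20 d was 3.37 ± 0.38 (SE) and, without 20 d B, 3.09 ± 0.38.

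Regulators of GA synthesis known from Arabidopsis seeds had 12 tested genes. From 0 d to 20 d edgeR called none, beside 7.88% of all tested genes called higher and 4.52% lower. In this interval 6 had an unadjusted p below 0.05 with edgeR, DESeq2 called 2 higher and limma 1 higher. From 20 d to 50 d edgeR called none (1.40% and 0.254% of all called higher and lower). There 3 had an unadjusted p below 0.05 with edgeR, DESeq2 called 1 lower and limma 1 higher. Over both intervals 4 were called higher by edgeR, where 15.6% of all tested genes were, and DESeq2 called 4 higher and 1 lower. With 20 d B left out, edgeR called 2 higher from 0 d to 20 d, none from 20 d to 50 d, and 4 higher and 1 lower from 0 d to 50 d. The 4 called with all libraries are named SPATULA, a factor that in Arabidopsis represses GA3ox in dormant seeds. Chr15.g04212 rose from 20.8 ± 6.03 to 45.3 ± 2.07 FPKM, and Contig41.g59305, Chr15.g02261 and Chr2.g42638 rose to 2.81 ± 0.481, 2.37 ± 0.357 and 2.12 ± 0.454 FPKM from below 0.3 (adjusted p between 0.00128 and 0.00784 with edgeR).

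Over the 59 tested genes of the 4 GA lists (synthesis, inactivation, perception and signaling, regulated peptides), the 4 genes left out, 9 were called higher and 3 lower from 0 d to 20 d, 2 higher and 3 lower from 20 d to 50 d, and 15 higher and 5 lower from 0 d to 50 d. In either direction, 12.4%, 1.66% and 26.6% of all tested genes were called in these intervals. Without 20 d B, these totals of 12, 5 and 20 were 16, 5 and 25. The first total was 5 without 0 d A, 6 without 0 d B, and 7 without 20 d A or without 20 d C. The second was 3 without 0 d A, 2 without 0 d B or 50 d A, 1 without 50 d B, and 0 without 20 d A or 20 d C.

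The genes with the most similar pattern were found by the root mean square difference of log2 CPM, centred over the 9 libraries, among 26237 genes with a mean of at least 1 FPKM at a stage. Nearest to CPS were Chr10.g14291 (a GDSL esterase/lipase), Chr15.g03159 (Fe-S cluster assembly factor HCF101) and Chr15.g04138 (MIZU-KUSSEI 1), at 0.26, 0.26 and 0.32. Nearest to KAO1 were Chr14.g49841 (tryptophan aminotransferase-related protein 2), Chr14.g48016 (IAA-amino acid hydrolase ILR1), and the unnamed Scaffold27.g59119, at 0.46, 0.49 and 0.52. Both named ones belong to auxin metabolism by name.

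Nearest to the GA20ox gene Chr1.g56784 were Chr6.g50842 (a pentatricopeptide repeat protein), the unnamed Chr3.g20646 and Chr16.g28238 (abscisic acid 8'-hydroxylase 1, which breaks down abscisic acid), at 0.26, 0.27 and 0.27. Nearest to Chr7.g31979 were Chr7.g31861 (cytochrome P450 89A9), Chr11.g13014 (a receptor-like kinase) and Chr15.g00156 (a zinc finger protein), at 0.47, 0.53 and 0.58. The median over all candidates was 1.12 to 1.95, and the 4 genes differed from each other by 1.37 to 3.15. Since the 4 were chosen with their levels known, nothing is read from their differences.

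The gene models next to the 4 genes did not share one pattern. Beside CPS, 2760 bases away, Chr11.g13138 (N-alpha-acetyltransferase 20) had mean levels of 105, 46.8 and 29.5 FPKM at the 3 stages, lowest at 50 d, where CPS was highest. Beside Chr7.g31979, 16124 bases away, Chr7.g31980 (carboxylesterase 1) was at 2.92, 0.758 and 0.168 FPKM. The other 6 neighbours had at most 3 counts in any library.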

How the data were processed

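Seed RNA-seq libraries (3 replicates at each of 0 d, 20 d and 50 d at 4 °C) were analysed. Per the study's methods, reads were cleaned, mapped with HISAT2 to the P. betuleafolia genome and expressed as FPKM. Not given in the sources used here: tool versions, the counting tool, strand use. The authors deposited raw counts and FPKM values per gene and library. The library size implied by the FPKM was 0.888 to 1.17 times the count total. The deposited stage means, fold changes and p-values of the authors' own comparisons were not used.

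The counts were fitted with edgeR 4.0.16 (R 4.3.3; TMM, filterByExpr, quasi-likelihood, stage as the only term, 28339 genes tested, Benjamini-Hochberg over all of them), in all 9 libraries; the script was tested on simulated data. Log2 CPM used a prior count of 2. SE values are Wald errors of that fit. Called genes needed an adjusted p of at most 0.01, an absolute log2 fold change of at least 1 and a mean of at least 1 FPKM. P-values set the stage difference against the spread between these seed pools, which the fit estimates over the libraries with information shared across genes.

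The 4 genes and the gene lists were chosen with earlier results of these data known. Named genes were the 4, other synthesis genes at 1 FPKM or more, the most abundant called gene of each other list (all where a list had at most 4), the 3 nearest in pattern and the neighbours. Alternatives were DESeq2 1.42.0, limma 3.58.1 on log2(FPKM + 1) and log2(FPKM + 0.1), RLE factors, no low-count filter, 2-stage fits, a replicate block, each library left out, and, chosen after seeing the data, removal of the trend with gene length (loess, span 0.5). Gene sequences were not used here.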

Additional observations from a re-analysis of the deposited data

How the results depend on the processing

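The direction of every called change of the 4 genes held under all 17 alternatives. The uncalled change of KAO1 from 20 d to 50 d turned in 2. On log2(FPKM + 1), which shrinks low genes by construction, the log2 changes from 0 d to 20 d were 0.39 (CPS), 2.32 (KAO1) and 1.30 (Chr1.g56784), from 20 d to 50 d 1.51 (CPS) and -0.70 (Chr7.g31979), and from 0 d to 50 d 1.90, 2.40, 0.62 and -1.94 in the order CPS, KAO1, Chr1.g56784, Chr7.g31979; the first interval minus the second was 2.25 (KAO1) and 1.99 (Chr1.g56784). On log2(FPKM + 0.1), CPS was at 1.24 from 0 d to 20 d and 3.70 from 0 d to 50 d. Removing the trend with gene length shifted the median of all genes by -0.19, -0.10 and -0.30 in the 3 comparisons; CPS then changed by 1.18 from 0 d to 20 d and 3.79 from 0 d to 50 d (first minus second interval -1.43), and Chr1.g56784 by 0.68 from 0 d to 50 d.

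With 1 library left out, from 0 d to 20 d CPS ranged from 1.44 to 1.96, KAO1 from 3.26 to 4.11, Chr1.g56784 from 1.83 to 2.50 and Chr7.g31979 from -2.43 to -1.51. From 20 d to 50 d the ranges were 2.51 to 2.85, -0.05 to 0.77, -1.41 to -0.68 and -2.67 to -1.11, and from 0 d to 50 d 4.14 to 4.60, 3.603 to 4.46, 0.97 to 1.24 and -4.64 to -3.05. The first minus the second interval ranged from -1.25 to -0.68, 2.91 to 3.85, 2.51 to 3.90 and -0.97 to 0.70.

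The 12 GA list genes called from 0 d to 20 d ranged from 5 (without 0 d A) to 16, the 5 from 20 d to 50 d from 0 (without 20 d A or 20 d C) to 5, and the 20 from 0 d to 50 d from 14 to 25. From 20 d to 50 d, DESeq2 called 10, limma on log2(FPKM + 1) 9, the length correction 9, an adjusted p of at most 0.05 gave 10, and a fit of the 2 stages alone 0. With the replicate block, 7 and 0 were called from 0 d to 20 d and from 20 d to 50 d; CPS (20 d to 50 d), Chr1.g56784 (0 d to 20 d) and Chr7.g31979 (0 d to 50 d) then missed the rule with changes of 2.64, 2.11 and -3.57. Deviations of same-letter libraries from their stage means had correlations of -0.56 to 0.55, above 0.1 in 2 of 9 pairs. Libraries of different letters ranged as widely, from -0.62 to 0.72. With 3 libraries per stage, these values cannot tell whether the letters pair the libraries. The cause of the differences between the fits was not tested.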
